A study of Mus musculus with 8 samples.

Results

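The genes described here are 10 genes of the smooth muscle contractile apparatus and its thin filament, listed by their symbols, with earlier results of these data known: Acta2, Actg2, Myh11, Tagln, Cnn1, Cald1, Des, Smtn, Lmod1 and Synpo2. All 10 are rows of the deposited table of 54532 genes, and all 10 were among the 15472 genes that passed the filter on low counts. The table holds bulk RNA-seq counts from whole, frozen prostates of 8 male mice of the non-obese diabetic (NOD) strain, an inbred strain with spontaneous autoimmune disease. Of these, 4 control mice received PBS (animals 1, 3, 65 and 69) and 4 received etanercept, a TNF blocker made of the outer part of a TNF receptor, at 4 mg/kg (animals 17, 19, 50 and 52). Both groups were injected into the peritoneum 2 times a week for 5 weeks, from an age of 25 weeks, and were harvested at 30 weeks. The study asked which genes and pathways differ in the prostate after blockade of TNF. Each library is 1 animal, the labels do not give the diabetic status of the animals or the lobes of the prostate, and every mouse carries the NOD background.

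Smooth muscle cells surround the ducts of the prostate and the walls of its vessels, and their contraction moves secretion along the ducts. Thin filaments of smooth muscle actin slide along thick filaments of smooth muscle myosin once calcium and calmodulin have switched on the kinase that phosphorylates the myosin light chain. Calponin, caldesmon, transgelin and smoothelin lie on the thin filament, desmin links the dense bodies to which the filaments are anchored, and many of these genes are switched on by serum response factor (SRF) together with myocardin. RNA of a whole organ is a mixture, so fewer smooth muscle cells and less RNA per smooth muscle cell cannot be told apart in these values.

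SRF binds a DNA element known as the CArG box, a pair of C, a run of A or T and a pair of G, which reads the same way on both strands. It was searched for in the 250 bases before the start of each gene in RefSeq's promoters of GRCm38.p6, which held 7 of the 10 genes and 27025 genes in all. Actg2, Myh11 and Tagln had no entry. The exact box stood before 0 of the 7 genes and before 439 of all genes (1.62%). With 1 letter of the box allowed to differ, it stood before 3 of the 7 genes and before 5694 of all genes (21.1%). The sites in Acta2, Cald1 and Lmod1 are shown because they are the nearest matches to this element that the 10 genes hold in these windows. Capitals mark the letters aligned to the box, of which 1 in each site differs from it, and positions are counted from the base before the RefSeq start, which is −1.
Acta2, −84 to −75, chr19:34255438-34255467, minus strand: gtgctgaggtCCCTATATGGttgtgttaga
Acta2, −34 to −25, chr19:34255388-34255417, minus strand: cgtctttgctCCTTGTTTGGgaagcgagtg
Cald1, −203 to −194, chr6:34598291-34598320, plus strand: acggtttcaaGCTTTTTAGGacttggtttt
Lmod1, −189 to −180, chr1:135324614-135324643, plus strand: gcccccttgtCTTTAAAAGGctaaactgct
Lmod1, −164 to −155, chr1:135324639-135324668, plus strand: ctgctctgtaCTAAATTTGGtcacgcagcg
GENCODE M21 places an exon over both Acta2 sites and none over the sites in Cald1 and Lmod1. A match of letters does not show that a factor binds there, and its absence from a window says nothing about the factor.

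The total count per mouse lay between 13760669 and 25178942, and TMM factors, which scale the libraries to each other, lay between 0.917 and 1.10. The 10 genes with most counts of each library took up 15.6% of the total in control 1 and 31.1% in control 69, with the other mice between. With edgeR's quasi-likelihood test and Benjamini-Hochberg adjustment over the 15472 tested genes, 0 genes (0.0%) had an adjusted p of at most 0.05, with 0.739 as the smallest adjusted p. At an unadjusted threshold of 0.05 in edgeR, 463 genes (2.99%) were higher in etanercept-treated mice and 561 (3.63%) were lower, and with libraries scaled on the total count alone 285 were higher and 837 lower. DESeq2's Wald test called 18 of the 15350 of these genes to which it gave an adjusted p (0.117%). The spread between mice of the same group was wide, with a biological coefficient of variation of 0.547.

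All 10 smooth muscle genes had a higher mean with etanercept, by 1.34-fold in Myh11 to 2.55-fold in Actg2, where 49% of all tested genes had a positive log2 fold change. The median log2 fold change of the 10 genes was 0.76, and that of all tested genes was −0.0099. At the adjusted threshold, 0 of the 10 genes passed in edgeR's quasi-likelihood test or in DESeq2's Wald test, with Benjamini-Hochberg adjusted p between 0.739 and 0.805 in edgeR and between 0.196 and 0.806 in DESeq2. At the unadjusted threshold, 6 of the 10 were higher in edgeR (Acta2, Actg2, Tagln, Cnn1, Cald1 and Synpo2) and 7 in DESeq2, which added Myh11, beside 2.99% of all tested genes in edgeR and 2.98% in DESeq2. In Tagln, Cnn1, Cald1 and Synpo2 every etanercept-treated mouse lay above every control mouse in CPM, the counts per 1e6 counts after TMM scaling. That was so in 2.41% of all tested genes, and the reverse, every treated mouse below every control mouse, in 2.53%.

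**Figure D1:**
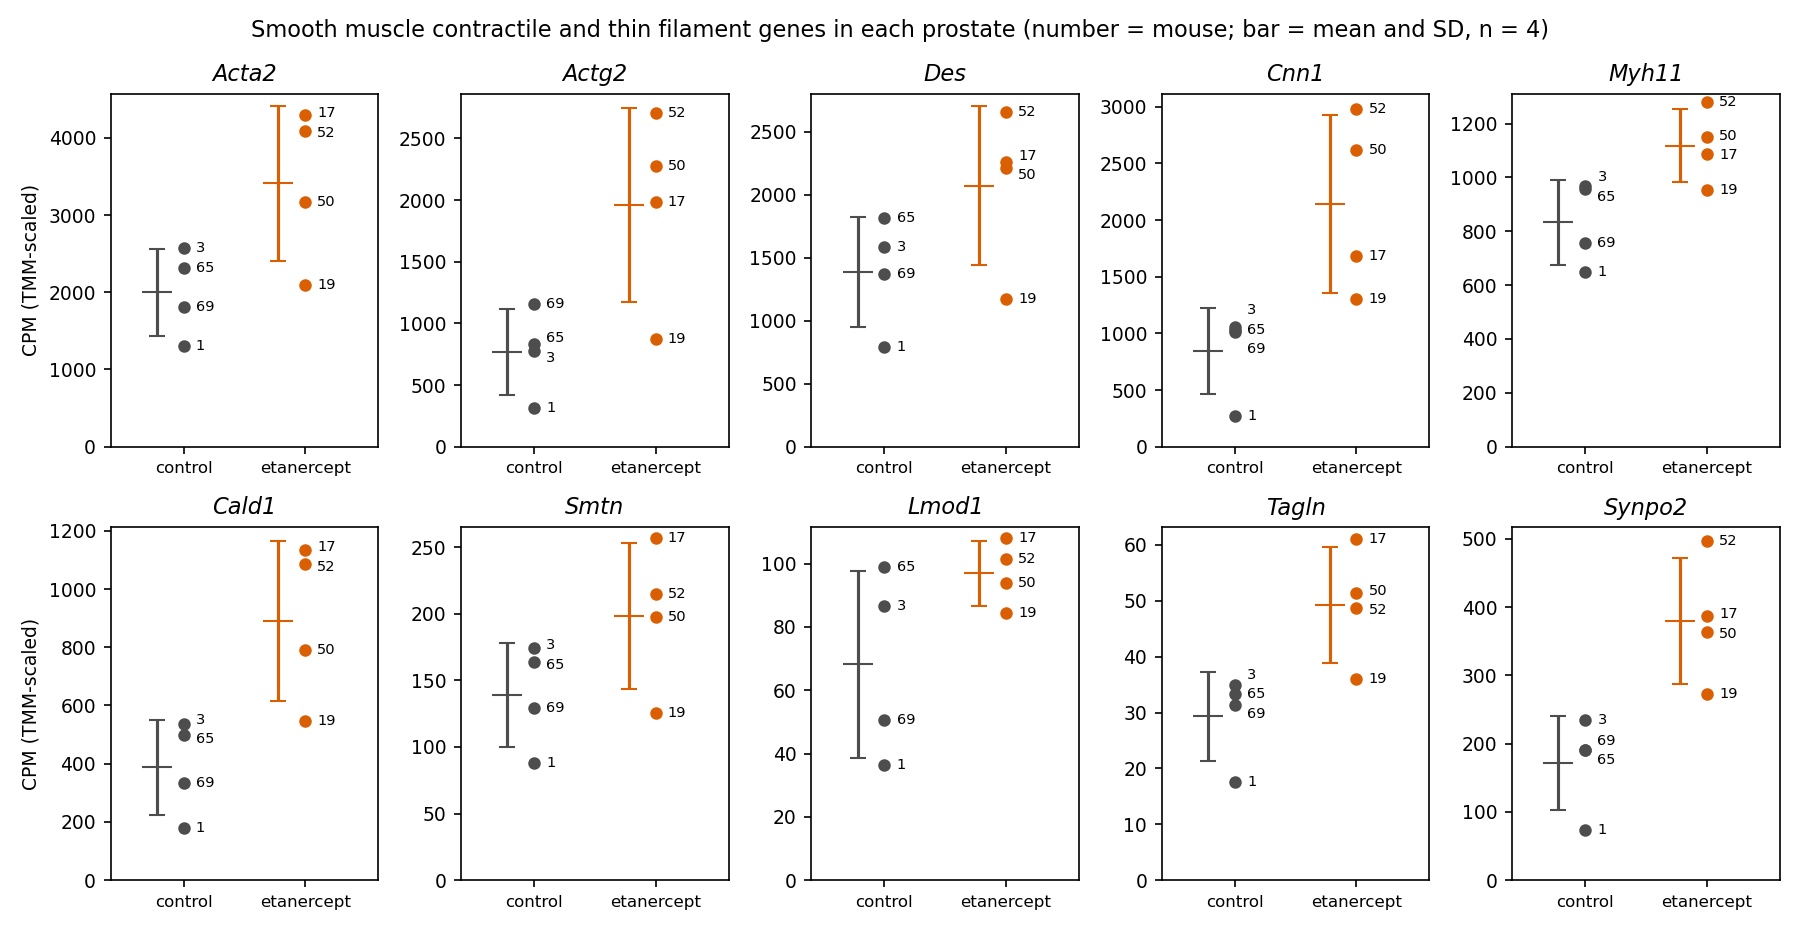
CPM after TMM scaling of the 10 genes in each of the 8 mice (dots, numbered by animal), with the mean and SD of each group of 4 mice, on linear axes from 0. Control 1 is the lowest mouse in every panel, and etanercept 19 is the lowest mouse of its group in every panel.

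The 2 smooth muscle actins form the thin filament. Acta2, the α-smooth muscle actin of vessels and ducts (chromosome 19, 34241090 to 34255590, minus strand, GRCm38), had 1304, 2569, 2309 and 1808 CPM in control 1, 3, 65 and 69 and 4294, 2091, 3172 and 4093 CPM in etanercept 17, 19, 50 and 52. Etanercept 19 lay below control 3 and control 65, and the other 3 etanercept-treated mice lay above all controls. The mean was 1997 ± 560 CPM in control and 3412 ± 1008 CPM with etanercept (n = 4 per group, SD), and the log2 fold change was 0.77 (standard error, SE, 0.32, 95% interval 0.047 to 1.498, exact two-sided permutation test, p = 0.0857).

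Actg2, the γ-smooth muscle actin that prevails in the muscle of hollow organs (chromosome 6, 83512905 to 83536265, minus strand), had 312.5, 772.5, 829.5 and 1161 CPM in the controls and 1985, 872, 2273 and 2707 CPM in the etanercept-treated mice, in the same order of mice. Only control 69 lay above the lowest etanercept-treated mouse, which was etanercept 19. The mean was 769 ± 349 and 1959 ± 783 CPM (n = 4 per group, SD), and the log2 fold change was 1.35 (SE 0.44, 95% interval 0.35 to 2.35, exact permutation test, p = 0.0571).

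Cnn1, the gene of calponin 1, an actin-binding protein that slows the myosin ATPase (chromosome 9, 22099216 to 22109630, plus strand), had 274, 1059, 1030 and 1010 CPM in the controls and 1680, 1301, 2617 and 2981 CPM in the etanercept-treated mice. The groups did not overlap. Control 3, 65 and 69 lay close to each other, with control 1 far below them. The mean was 843 ± 380 and 2145 ± 786 CPM (n = 4 per group, SD), and the log2 fold change was 1.35 (SE 0.45, 95% interval 0.35 to 2.35, exact permutation test, p = 0.0286). That p is the smallest that 4 mice against 4 can give.

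Cald1, the gene of caldesmon, which binds actin and calmodulin and holds back contraction (chromosome 6, 34598500 to 34775473, plus strand), had 181, 537, 499 and 334 CPM in the controls and 1134, 547, 790 and 1087 CPM in the etanercept-treated mice. The groups did not overlap, and the gap between the highest control mouse, control 3, and the lowest etanercept-treated mouse, etanercept 19, was narrow. The mean was 388 ± 164 and 890 ± 274 CPM (n = 4 per group, SD), and the log2 fold change was 1.20 (SE 0.37, 95% interval 0.38 to 2.02, exact permutation test, p = 0.0286). Counts of Cald1 hold both the smooth muscle form and the shorter form of other cells, which a gene count does not separate.

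Tagln, the gene of transgelin or SM22α, an early marker of the smooth muscle lineage (chromosome 9, 45929619 to 45936058, minus strand), had 17.6, 35.0, 33.4 and 31.4 CPM in the controls and 61.0, 35.9, 51.4 and 48.7 CPM in the etanercept-treated mice. The groups did not overlap, with etanercept 19 just above control 3. The mean was 29.3 ± 7.98 and 49.3 ± 10.3 CPM (n = 4 per group, SD), and the log2 fold change was 0.75 (SE 0.25, 95% interval 0.19 to 1.31, exact permutation test, p = 0.0286).

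The value of Tagln is uncertain. Of its exon bases, 1241 (62.4%) lie under exons of the antisense gene Gm48529 and 108 (5.43%) under those of Pcsk7, both on the opposite strand. Tagln had between 474 and 1048 counts per mouse and Gm48529 between 53 and 209, or 20.6% of the counts of Tagln, with a log2 fold change of 0.74. Pcsk7 had between 412 and 796 counts, or 90.0% of those of Tagln, with a log2 fold change of 0.19. Whether the counting used strand is not given in the sources used here. Without strand, reads over the shared bases belong to neither gene by position alone, and how many were lost was not tested. Among the other 9 genes, exons of genes on the opposite strand covered 16.3% of the exon bases of Smtn, by Gm11946 with 1 to 20 counts, and 5.86% of those of Des, by Gm15179 with 0 counts in every mouse. No stretch of 150 or of 75 bases of any of the 10 genes occurred on the same strand in a transcript of another gene.

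Synpo2, the gene of synaptopodin 2 (myopodin), a protein of the dense bodies and Z-discs that bundles actin (chromosome 3, 123076519 to 123236149, minus strand), had 72.8, 234, 190 and 191 CPM in the controls and 387.5, 273, 363 and 496 CPM in the etanercept-treated mice. The groups did not overlap, and of the 10 genes Synpo2 was the only one in which they also did not overlap in TPM, which sets counts per base of exon to the same sum in every mouse. The mean was 172 ± 69.2 and 380.0 ± 91.9 CPM (n = 4 per group, SD), and the log2 fold change was 1.14 (SE 0.34, 95% interval 0.38 to 1.90, exact permutation test, p = 0.0286).

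Myh11, the smooth muscle myosin heavy chain and the motor of the thick filament (chromosome 16, 14194535 to 14291372, minus strand), had 648, 969.5, 958 and 758 CPM in the controls and 1088, 954, 1150.0 and 1280.0 CPM in the etanercept-treated mice. Etanercept 19 lay just below control 3 and control 65. The mean was 833 ± 157 and 1118 ± 136 CPM (n = 4 per group, SD), and the log2 fold change was 0.42 (SE 0.21, 95% interval −0.054 to 0.90, exact permutation test, p = 0.0857), the smallest of the 10 genes.

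Des, the gene of desmin, the intermediate filament protein of muscle (chromosome 1, 75360329 to 75368579, plus strand), had 795, 1582, 1817 and 1368 CPM in the controls and 2257, 1170.0, 2212 and 2657 CPM in the etanercept-treated mice. Etanercept 19 lay below 3 of the 4 controls. Its log2 fold change was 0.58 (SE 0.34, 95% interval −0.18 to 1.33, exact permutation test, p = 0.171).

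Smtn, the gene of smoothelin, a cytoskeletal protein of contractile smooth muscle (chromosome 11, 3517523 to 3540612, minus strand), had 88.0, 174, 164 and 129 CPM in the controls and 257, 125, 198 and 215 CPM in the etanercept-treated mice. As in Des, etanercept 19 lay below 3 of the 4 controls. The log2 fold change of Smtn was 0.52 (SE 0.27, 95% interval −0.090 to 1.13, exact permutation test, p = 0.171).

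Lmod1, the gene of leiomodin 1, which starts new actin filaments in smooth muscle (chromosome 1, 135324807 to 135368065, plus strand), had 36.3, 86.8, 99.0 and 50.8 CPM in the controls and 108, 84.3, 94.0 and 101 CPM in the etanercept-treated mice. The etanercept-treated mice lay close together, and control 65 lay above etanercept 19 and etanercept 50. The SD was 29.6 CPM in control and 10.2 CPM with etanercept (n = 4 per group), and the log2 fold change was 0.51 (SE 0.29, 95% interval −0.15 to 1.17, exact permutation test, p = 0.171).

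**Figure D2:**
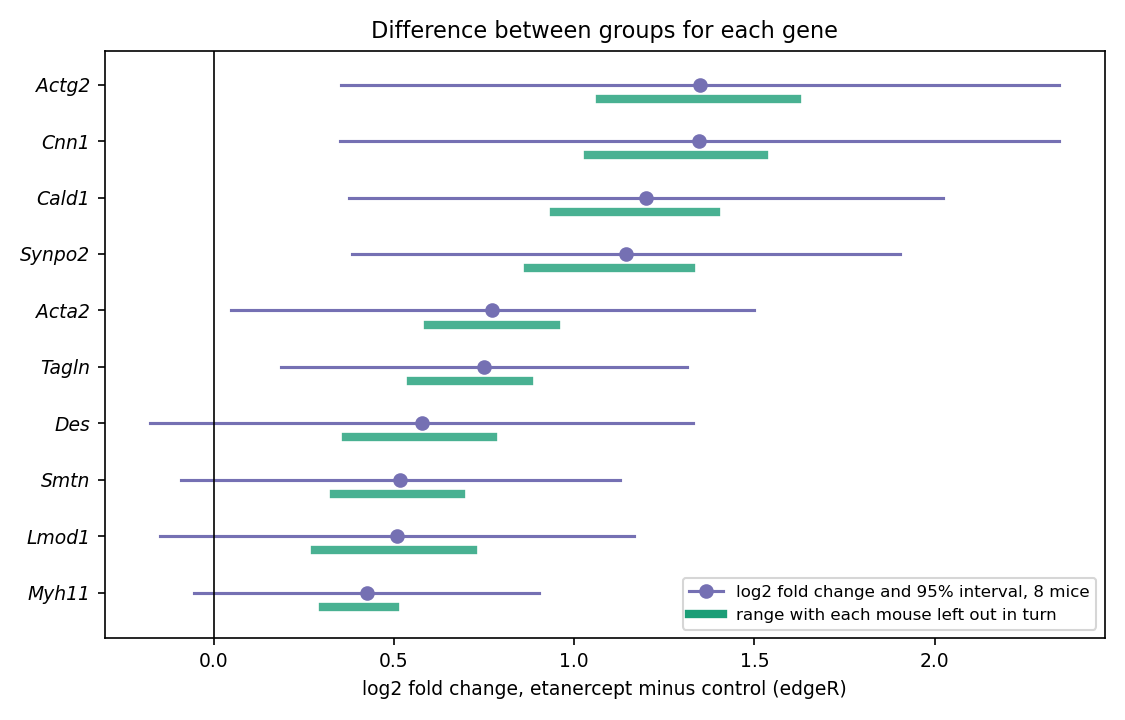
Log2 fold change, etanercept minus control, of each gene with its 95% interval from edgeR over 8 mice (points and thin lines), and its range when each mouse was left out in turn (thick lines). The intervals of Actg2, Cnn1, Cald1, Synpo2, Acta2 and Tagln lie above 0, those of Des, Smtn, Lmod1 and Myh11 cross 0, and every thick line lies above 0.

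Control 1 was the lowest mouse in 10 of the 10 genes, and etanercept 17 and etanercept 52 were each the highest in 5. Etanercept 19 was among the 3 lowest mice in 5 genes and among the 3 highest in 0, and control 69 was among the 3 lowest in 9. The 10 genes together held 0.41% of the counts in control 1, 0.854% in control 3, 0.818% in control 65 and 0.626% in control 69, and 1.28%, 0.708%, 1.24% and 1.59% in etanercept 17, 19, 50 and 52. Their 95% Wilson intervals, which cover counting error only, ran from 0.407% to 0.412% in control 1 and from 1.58% to 1.59% in etanercept 52. The share was 0.677% ± 0.204 in control and 1.20% ± 0.366 with etanercept (n = 4 per group, SD), with etanercept 19 below control 3 and control 65.

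Control 1, the mouse with the largest total count, bore on the size of the differences. Without control 1 the log2 fold changes of Lmod1, Des and Smtn were 0.28, 0.37 and 0.33, a move of more than 1.5 times, and those of the other 7 genes lay between 0.30 in Myh11 and 1.07 in Actg2. Without etanercept 19 they lay between 0.49 in Myh11 and 1.595 in Actg2, and 8 of the 10 genes then passed the unadjusted threshold in edgeR, beside 404 higher and 424 lower genes of all tested. Without control 1, 5 of the 10 passed, beside 499 higher and 447 lower genes of all tested.

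Levels of different genes were compared in TPM, computed from the counts and the exon lengths. The medians over the 8 mice ran from Acta2 at 2664 TPM through Actg2 at 1402, Des at 1070.0, Cnn1 at 965, Myh11 at 296.5, Cald1 at 103, Smtn at 90.4 and Lmod1 at 48.8 to Tagln and Synpo2 at 41.3 TPM each. The level and place of Tagln carry the uncertainty of its count given above. Acta2 lay above 99.8% of the tested genes and Synpo2 above 85.2%. The ranges over mice of every pair of neighbours in this order overlapped. Within mice, Cnn1 was above Myh11, Myh11 above Cald1 and Smtn above Lmod1 in 8 of 8 mice, and Acta2 above Actg2 and Actg2 above Des in 7 of 8, with Actg2 above Acta2 in etanercept 50. Cnn1 was above Des in 5 of 8 mice, and neither Lmod1 and Tagln nor Tagln and Synpo2 kept an order. The order of means depended on the group in places. Des was above Cnn1 in controls (845 and 694.5 TPM) and below it with etanercept (1273 and 1799 TPM), there in 4 of 4 mice, and Tagln was above Synpo2 in controls (33.4 and 29.6 TPM) and below it with etanercept (56.4 and 66.8 TPM). Lmod1 was above Tagln and Synpo2 in controls (39.9 TPM) and below both with etanercept (55.8 TPM). Exon lengths ran from 1557 bases in Actg2 to 13089 in Synpo2. Scaled on its longest transcript instead of all its exons, Cald1 stood at 206.6 TPM, in the same place, while Lmod1 went from place 8 to place 10.

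A ratio between a pair of genes within a mouse does not depend on the scaling between libraries, apart from the 1 TPM added to each value here. That addition weighs most on genes with low TPM. In all, 14 ratios of (TPM + 1) were tested with exact two-sided permutation tests, and 0 of them passed 0.05 after Benjamini-Hochberg adjustment over the 14. In 5 of them the groups did not overlap, each with the smallest p that 4 mice against 4 allow (exact permutation test, p = 0.0286, and 0.0801 after adjustment).

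Of these 5, 3 set a smooth muscle gene against its paralogue of non-muscle cells. Acta2 to Actb, the β-actin of all cells, was 0.526, 0.997, 1.21 and 1.27 in the control mice and 1.77, 1.54, 2.19 and 2.37 in the etanercept-treated mice, a difference of 1.03 on the log2 scale. Cnn1 to Cnn3, the acidic calponin of many cell types, was 2.23 to 8.09 in controls and 8.54 to 17 in treated mice, a log2 difference of 1.19. Tagln to Tagln2, the transgelin of non-muscle cells, was 0.124 to 0.348 and 0.367 to 0.438, a log2 difference of 0.84, with the uncertainty of the Tagln count given above. Without control 1 the differences of these 3 ratios were 0.75, 0.79 and 0.55, the last 2 smaller by more than 1.5 times. In the other 2 such ratios etanercept 19 lay within the range of the controls. Actg2 to Actg1, the cytoplasmic γ-actin, had a log2 difference of 1.14 (exact permutation test, p = 0.0571, adjusted 0.133), and Myh11 to Myh9, a non-muscle myosin heavy chain, one of 0.77 (exact permutation test, p = 0.0857, adjusted 0.15). Of the stretches of 150 and of 75 bases of Actg1, 23.3% and 33.5% occurred on the same strand in transcripts of other genes. How this bears on the count of Actg1 was not tested.

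The remaining 9 ratios set each gene against Acta2. Cald1 to Acta2 was 0.026, 0.0385, 0.0397 and 0.0343 in the control mice and 0.0484, 0.0482, 0.0458 and 0.0486 in the etanercept-treated mice, a log2 difference of 0.48. Smtn to Acta2 was 0.0345, 0.0344, 0.036 and 0.0364 in the control mice and 0.0302, 0.0306, 0.0316 and 0.0265 in the etanercept-treated mice, a log2 difference of −0.25. Both ratios separated the groups, in opposite directions, and the ratio of Smtn had the smallest SD of all 14 in the control mice, 0.041 on the log2 scale.

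The other 7 ratios to Acta2 overlapped between the groups. Those of Cnn1, Actg2 and Synpo2 differed by 0.69, 0.61 and 0.44, those of Myh11, Des and Lmod1 by −0.33, −0.19 and −0.17, and that of Tagln by −0.011, with exact permutation p between 0.0857 and 0.943. Most of these differences moved by more than 1.5 times when 1 mouse was left out. Those of Cnn1 and Synpo2 were 0.40 and 0.27 without control 1, those of Myh11 and Des were −0.19 and −0.12 without etanercept 17, and Des was −0.12 and Lmod1 −0.043 without control 65. Lmod1 also stood at −0.092, −0.32 and −0.084 without etanercept 17, 19 and 52, and Tagln lay between −0.089 and 0.093 with a mouse left out. The sign of Tagln also turned, to 0.0058, with a pseudocount of 0.1 TPM in place of 1. With CPM, without length scaling, the differences of Cald1 and Smtn to Acta2 were 0.49 and −0.25.

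**Figure D3:**
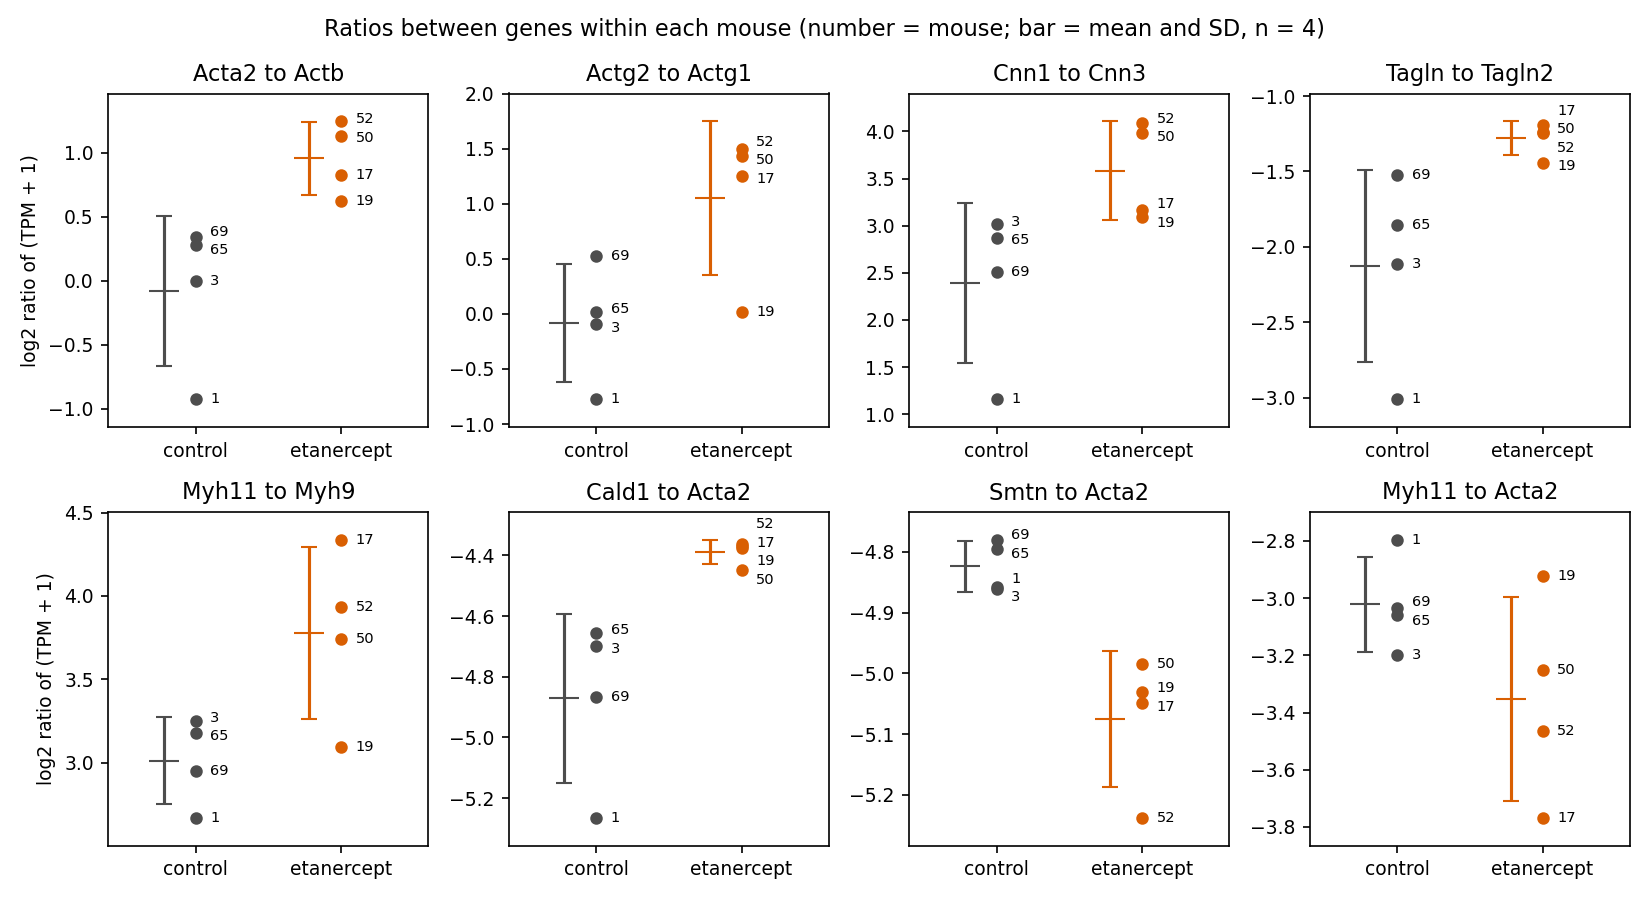
Log2 ratio of (TPM + 1) for 8 of the 14 pairs of genes in each mouse (dots, numbered by animal), with mean and SD of each group of 4 mice. The dots of both groups are apart in Acta2 to Actb, Cnn1 to Cnn3, Tagln to Tagln2, Cald1 to Acta2 and Smtn to Acta2, with Smtn to Acta2 lower and the others higher in etanercept-treated mice, and etanercept 19 lies among the controls in Actg2 to Actg1, Myh11 to Myh9 and Myh11 to Acta2.

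The likeness of profiles was taken as the root mean square distance, over the 8 mice, between log2(CPM + 1) values centred on each gene's mean. Between the 45 pairs of the 10 genes it was smallest for Acta2 and Smtn, at 0.143, followed by Tagln and Smtn at 0.170 and Des and Smtn at 0.171. It was largest for Myh11 and Cnn1, at 0.722, which were the genes with the narrowest and the widest spread over mice. The mean profile of the 10 genes stood at −1.28, −0.064, −0.093 and −0.35 in control 1, 3, 65 and 69 and at 0.63, −0.12, 0.53 and 0.76 in etanercept 17, 19, 50 and 52. Of all tested genes, 7 of the 10 were among the 100 nearest to this profile, which they help to form.

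Outside the 10 genes, the nearest were Mylk (distance 0.138), Synm (0.140), Flna (0.140), Col4a2 (0.141), Slc24a3 (0.145), Tpm1 (0.154), Ppp1r12b (0.158), Itga1 (0.164), Marveld1 (0.175) and Cdc42ep3 (0.193), where the median of all tested genes was 0.748. Mylk encodes the myosin light chain kinase, Synm the intermediate filament protein synemin, Flna the actin crosslinker filamin A, Tpm1 a tropomyosin and Ppp1r12b a subunit of myosin phosphatase. Their log2 fold changes lay between 0.58 in Cdc42ep3 and 1.02 in Synm, a direction that the choice fixes, since the profile itself is higher in the etanercept-treated mice.

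The remaining genes of contraction were taken from lists of their roles, and in each list 0 genes had an adjusted p of at most 0.05. Their counts stand beside shares over all tested genes of 49% with a positive log2 fold change and, at the unadjusted threshold, 2.99% higher and 3.63% lower. Of the 20 further genes of the thin filament, the dense bodies and the linkers of filaments, 18 had a positive log2 fold change, 8 were higher and 0 lower at the unadjusted threshold, and the median log2 fold change was 0.65. Among those with the smallest p were Synm (log2 fold change 1.02, SE 0.30), Tpm1 (0.98, 0.29), Hspb6, the small heat shock protein of 20 kDa (1.42, 0.44), and Tpm2, the β-tropomyosin (0.71, 0.25). Csrp1, a LIM protein of smooth muscle, had the highest level of the list, with 1706 ± 942 TPM in control and 3252 ± 1095 TPM with etanercept (n = 4 per group, SD) and a log2 fold change of 0.92 (SE 0.42). Vim, the gene of vimentin, the intermediate filament protein of mesenchymal cells, stood at 101 ± 27.0 and 103 ± 33.3 TPM (n = 4 per group, SD).

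Of 16 genes of the thick filament and of light chain phosphorylation, 14 had a positive log2 fold change and 5 were higher at the unadjusted threshold, with 0 lower and a median of 0.38. These were Mylk, which switches contraction on (log2 fold change 0.82, SE 0.28), Ppp1cb, Ppp1r12a and Ppp1r12b, subunits of the phosphatase that switches it off (0.61, 0.57 and 0.83, SE 0.23, 0.23 and 0.33), and Rock1, a kinase that inhibits that phosphatase (0.53, SE 0.19). Genes with opposite roles thus had log2 fold changes of the same sign. Myl9, the regulatory light chain of smooth muscle, had 1229 ± 435 TPM in control and 1758 ± 491 TPM with etanercept (n = 4 per group, SD), a log2 fold change of 0.52 (SE 0.26), and Myl6, the essential light chain that other cells share, had a log2 fold change of −0.014 (SE 0.19).

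Of 15 genes of calcium entry, release and membrane potential, 12 had a positive log2 fold change, 2 were higher and 0 lower at the unadjusted threshold, and the median was 0.58. The 2 were Cacnb2, a subunit of the voltage-gated calcium channel (log2 fold change 1.06, SE 0.38), and Atp2a2, the calcium pump of the sarcoplasmic reticulum (0.58, SE 0.24). The median of this list was 0.34 when at least 10 counts were required in every mouse, and also 0.34 without etanercept 52.

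Of 12 genes of SRF, myocardin and their regulators, 11 were tested, 6 had a positive log2 fold change, near the share over all genes, 2 were higher and 0 lower at the unadjusted threshold, and the median was 0.13, which turned to −0.0055 without etanercept 17. Myocd, the gene of myocardin, had 0.608, 3.06, 2.31 and 2.00 TPM in the control mice and 4.17, 2.84, 3.24 and 9.28 TPM in the etanercept-treated mice. In TPM etanercept 19 lay below control 3, whereas in CPM the groups did not overlap. The log2 fold change of Myocd was 1.23 (SE 0.51), that of Tead1, another factor of muscle promoters, was 0.46 (SE 0.18), and that of Srf itself was 0.19 (SE 0.21). Gata6 did not pass the filter on low counts.

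Among the paralogues that the 10 genes have in non-muscle and striated muscle cells, 13 of 18 were tested, 8 had a positive log2 fold change and 0 passed the unadjusted threshold in either direction. Their median log2 fold change was 0.13, and its sign depended on the scaling, at −0.014 with the total count alone. Actb, Myh9, Tagln2, Cnn2 and Cnn3 had log2 fold changes of −0.27, −0.29, −0.11, 0.071 and 0.25 (SE 0.30, 0.22, 0.20, 0.24 and 0.17), and Actg1 had 0.22 (SE 0.22). Actg1 was the 1 paralogue of the 13 tested in which the groups did not overlap in CPM, and was higher with etanercept. The same held for 4 of 20, 3 of 16, 1 of 15 and 2 of 11 tested genes of the further thin filament, thick filament, calcium and SRF lists. Over all tested genes, 2.41% were higher without overlap and 2.53% were lower. The limit on Actg1 given with its ratio holds here too. The log2 fold changes of Myh10, Myh14, Synpo, Smtnl2, Tmod1 and Tagln3 lay between −0.40 in Myh14 and 0.39 in Tmod1. Actc1, Smtnl1, Lmod2, Lmod3 and Synpo2l did not pass the filter.

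Acta1, the actin of skeletal muscle, had 99.8, 1388, 316.5 and 630.5 TPM in the control mice and 1028, 928, 1326 and 2185 TPM in the etanercept-treated mice, a log2 fold change of 1.10 (SE 0.66). It was lowest in control 1 and highest in etanercept 52, as were 7 of the 10 smooth muscle genes in TPM (Acta2, Actg2, Cnn1, Cald1, Des, Lmod1 and Synpo2). Ckm, the creatine kinase of muscle, stood at 125 TPM in control 3 and between 0.684 and 20.8 TPM in the other 7 mice.

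**Figure D4:**
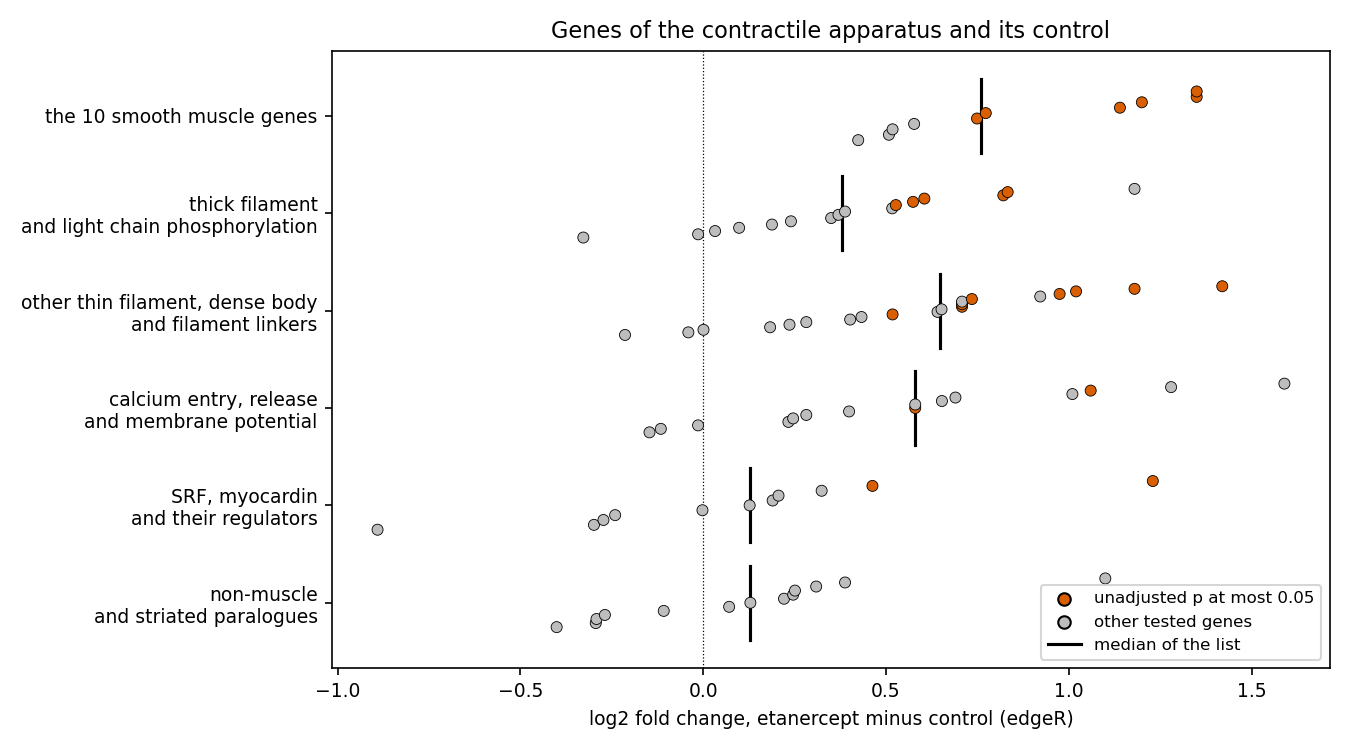
Log2 fold change from edgeR, etanercept minus control, of each tested gene of the 10 smooth muscle genes and of 5 lists of related genes (dots), with the median of each list (vertical bars). The medians are 0.76 in the 10 genes, 0.38, 0.65 and 0.58 in the thick filament, further thin filament and calcium lists, and 0.13 in both the SRF and the paralogue list, where the sign of the median depends on the scaling or on single mice as given in the text.

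The mixture of cells in a prostate was described by markers of other cell types, as the summed TPM of each list. Of 9 markers of vascular mural cells, the contractile cells of vessel walls, 8 were tested, 0 were higher and 1, Pdgfrb, was lower at the unadjusted threshold. Their sum was 46.2 to 127 TPM in control and 71.8 to 140 TPM with etanercept, and Mcam alone ran from 17 to 82.8 and from 38.7 to 88.4 TPM. Fibroblast markers summed to 208 to 488 and 225 to 465 TPM, with 0 of 10 genes past that threshold.

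Markers of immune cells summed to 263 to 1118 TPM in control and 259 to 313 TPM with etanercept, with 3 of 9 lower at the unadjusted threshold. Those of basal epithelium summed to 159 to 440 and 130 to 301 TPM, with 2 of 5 tested genes lower, those of luminal epithelium to 6677 to 30560 and 7583 to 27410 TPM, with 0 of 10 past that threshold, and those of endothelium to 19.8 to 56.4 and 17.7 to 38.1 TPM, with 0 of 7. Adipocyte markers summed to 17.2 to 240 and 13.0 to 20.8 TPM, with 4 of 6 tested genes lower and 4 of all 7 at 0 in at least 1 mouse. Single genes set some of these sums. Pbsn, a secretory protein of the luminal epithelium, ran from 2340 to 24670 TPM in controls and from 3908 to 23180 TPM with etanercept, and C1qa, a complement gene of macrophages, from 198 to 805 and from 131 to 249 TPM. The log2 fold change was positive in 0 of 9 immune (median −0.42), 0 of 5 basal (−0.63), 2 of 10 luminal (−0.14), 0 of 7 endothelial (−0.53), 0 of 6 adipocyte (−2.87), 3 of 8 mural (−0.15) and 4 of 10 fibroblast genes (−0.098), where 49% of all tested genes were positive and 3.63% were lower at the unadjusted threshold. The part of these cell types in the differences of the 10 genes was not tested. Glia and nerve markers summed to 22.8 to 910 and 228 to 478 TPM and those of bladder urothelium to 251 to 869 and 188 to 681 TPM, with 0 genes of either past that threshold. Every one of the 10 smooth muscle genes had counts in every mouse.

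Markers of skeletal muscle and seminal vesicle were high in single mice. Skeletal muscle markers, leaving out Acta1, summed to 1327 TPM in control 3 and to 15.0 to 54.8 TPM in the other 7 mice, and 9 of the 12 markers were at 0 in at least 1 mouse. Of the 8 tested, with Acta1, 1 had a positive log2 fold change, 0 were higher and 3 lower at the unadjusted threshold, and the median was −2.59. Over all tested genes 49% were positive and 3.63% were lower at that threshold. Without control 3 the log2 fold changes of the 10 genes lay between 0.50 in Myh11 and 1.47 in Cnn1. Seminal vesicle markers summed to 0 to 6588 TPM in control mice and to 169300, 11.5, 1154 and 90.4 TPM in etanercept 17, 19, 50 and 52, with 8 of 8 at 0 in at least 1 mouse. Of the 4 tested, 4 had a positive log2 fold change, with a median of 4.18, and 0 passed the unadjusted threshold. Without etanercept 17 the log2 fold changes of the 10 smooth muscle genes lay between 0.37 in Smtn and 1.45 in Cnn1. Without control 69, the control mouse with 6588 TPM, they lay between 0.38 in Myh11 and 1.62 in Actg2. The part of these tissues in the differences was otherwise not tested.

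**Figure D5:**
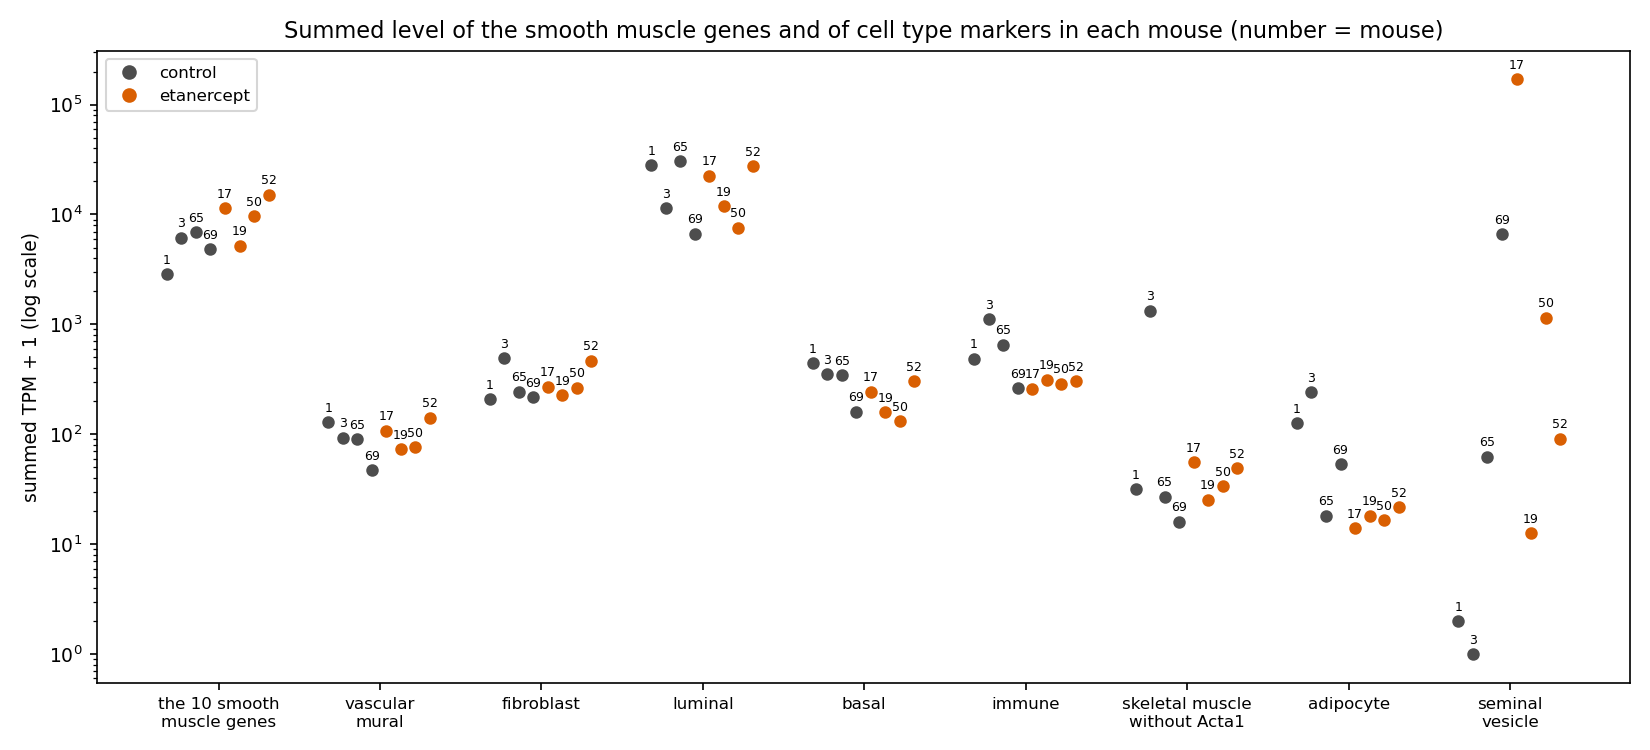
Summed TPM + 1, on a log axis, of the 10 smooth muscle genes and of 8 lists of cell type markers in each of the 8 mice (dots, numbered by animal). The 10 genes run from 2872 TPM in control 1 to 15100 TPM in etanercept 52, control 3 stands apart in the skeletal muscle markers at 1327 TPM, and etanercept 17 in the seminal vesicle markers at 169300 TPM.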

How the data were processed

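Per the paper's methods and the submitters' processing notes, the authors prepared poly(A)-selected libraries from whole prostates, mapped paired reads of 150 bases to mm10 with STAR 2.6.1d after fastp, counted reads per gene with featureCounts 1.5.0-p3 and tested treatment with DESeq2 1.26.0. The deposited values are whole-number counts per gene and mouse, without normalization. The annotation used for counting and its strand setting are not given in the sources used here.

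All 8 columns were assigned to mice by their labels, 4 per group. Identifiers were matched to GENCODE M21 on GRCm38 (54495 of 54532). Counts were tested for etanercept against control in edgeR 4.0.16 (TMM factors, filterByExpr with a minimum count of 10, quasi-likelihood test, Benjamini-Hochberg adjustment over all tested genes, adjusted p of at most 0.05), with DESeq2 1.42.0 as an alternative. The 95% intervals of log2 fold changes come from the edgeR fit. Exact permutation tests ran over all 70 assignments of the 8 mice, on log2(CPM + 1) or on log2 ratios of (TPM + 1), and cannot give a p below 0.0286. TPM used the union of exons of each gene. Depth was 13760669 to 25178942 counts per mouse. Wilson intervals at 95% cover counting error only, since duplicate reads cannot be recognised in counts. The edgeR fit was tested on simulated counts with known changes.

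The 10 genes, the lists and the markers were chosen with earlier results of these data known. Named were all 10 genes, all paralogues, up to 5 genes per list by smallest p and up to 5 by highest TPM, of which some are described and 1 is not reported here, and the 10 genes nearest to the mean profile. Vim, Srf, Ckm, Pdgfrb, Mcam, Pbsn and C1qa were named after their values were seen. Alternatives were RLE factors, total counts without TMM, TMM factors that leave out the top 50 genes, other filters, a robust fit, removal of the length trend (lowess, span 0.3), animal number below 20 or above 49 as a term, other pseudocounts, and each mouse left out.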

Additional observations from a re-analysis of the deposited data

Results flagged for a closer look

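Of the 22 groups of 4 mice looked at for an outlying mouse, 1 held one, where chance alone gives about 1 in 20 of independent groups. These groups are not independent, since they hold the same mice seen through genes with like profiles. Control 1 was the lowest mouse in all 10 genes. The flagged group was Cnn1, calponin 1, in the control mice, where control 1, at 274 CPM, lay far below control 3, 65 and 69 at 1059, 1030 and 1010 CPM. The gap between control 1 and the nearest of the others made up 0.938 of the whole range of the group, above Dixon's critical value for 4 samples. Without control 1 the log2 fold change of Cnn1 was 1.04 in place of 1.35.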

How the results depend on the processing

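Under 17 alternatives, the 170 log2 fold changes of the 10 genes all kept their positive sign and an adjusted p above 0.05, so that 0 of the 10 genes were called by any of them. Over all genes the number called was 0 to 0 with a mouse left out, and DESeq2's Wald test called 21 of all genes, where 18 of the 21 were among those tested in edgeR. At the unadjusted threshold of 0.05, 5 to 8 of the 10 genes passed. Over all genes that threshold gave 463 higher and 561 lower genes, 285 and 837 with the total count alone, 524 and 841 in DESeq2, 333 and 534 without the length trend, and 263 to 870 higher and 398 to 956 lower with a mouse left out, the most of both without control 69.

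Removing the trend with gene length left Cald1 and Synpo2, the longest of the 10 genes, at log2 fold changes of 1.05 and 0.99 in place of 1.20 and 1.14, and Myh11 at 0.31. Of 154 ratio differences under alternatives, 4 turned their sign, all of Tagln to Acta2, which was −0.011, became 0.00578 with a pseudocount of 0.1 TPM and ran from −0.0892 to 0.0928 with a mouse left out. With 1 letter of the CArG box allowed to differ, 3 of 7 genes and 5694 of 27025 held it in place of 0 and 439. The paralogue median was −0.034 without etanercept 52.

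No paired analysis was possible because the groups share no animal number. With 4 mice a group the 95% interval of Myh11, the narrowest of the 10 genes, ran from −0.054 to 0.90. The cause of these moves was not tested.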
